A study of Mesocricetus auratus with 6 samples.

Results

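The genes described are those of the *ABCA*, *ABCB*, *ABCC*, *ABCD*, *ABCG*, *SLC22* and *SLCO* transporter families of the Syrian hamster. They were chosen by symbol, as every gene whose symbol begins with *Abca*, *Abcb*, *Abcc*, *Abcd* or *Abcg* and a number, with *Slc22a* and a number, or with *Slco* and a number. In this way 57 of 31593 genes were found, with 8 *ABCA*, 8 *ABCB*, 10 *ABCC*, 4 *ABCD*, 4 *ABCG*, 15 *SLC22* and 8 *SLCO* members. No measured value entered this choice. RNA-seq had been done on cortex, suprachiasmatic nucleus (SCN) and liver of wild-type and *duper* hamsters, which carry a null mutation of *Cryptochrome 1* (*Cry1*). All hamsters were raised in a cycle of 14 h light and 10 h dark, and tissues were taken at circadian time (CT) 15, in the early subjective night. The *duper* group was 4 females and the wild-type group was 2 females and 2 males, so that sex and genotype cannot be fully told apart. Each brain library was a pool, made from cortex or SCN RNA of all 4 animals of that genotype. The labels describe a separate liver library for each hamster, and 1 set of liver values per genotype was analysed here. How the separate liver libraries of a genotype were merged into that set is not given in the sources used here. The 6 sets of values, 1 per genotype and tissue, are called libraries below. The study's supplement calls the wild-type animals LVG hamsters. Ages of the hamsters sequenced are not given in the sources used here.

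ATP-binding cassette (ABC) transporters use ATP to move lipids, sterols, bile acids, conjugates and drugs across membranes. SLC22 proteins carry organic anions, cations and zwitterions, and SLCO proteins (the OATPs) carry larger organic anions such as bile acids, thyroid hormones and conjugated steroids. In liver these families take up solutes from blood at the sinusoidal face of hepatocytes and export them into bile at the canalicular face. In brain they act at the blood-brain barrier, the choroid plexus and the meninges, and in neurons and glia, where several ABC proteins handle lipids.

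The total estimated count ranged from 6788947 to 85748562 per library, and the members took 0.254% to 0.418% of it. Of the 57 members, 56 had at least 1 count in total and 1, *Slc22a13*, had none in any library. A level of 1 TPM (an expression unit scaled for transcript length and for the library total) was reached in at least 1 library by 48 members and in every library by 27. *Cry1* measured 33.3, 22.9 and 16.8 TPM in wild-type cortex, SCN and liver and 8.56, 8.14 and 5.44 TPM in the *duper* tissues, so it was lower in *duper* in every tissue. The tissue labels were checked against marker genes. All 8 hepatocyte markers passed the test described below as higher in liver and all 5 neuron markers as higher in brain, all 5 cortex markers were higher in cortex than in SCN, and 3 of 4 tested SCN markers (*Six6*, *Lhx1* and *Rgs16*) were higher in SCN. *Nms* had counts in the SCN libraries alone but was not called (adjusted p = 0.0629, edgeR), and *Prok2*, which was not tested, was under 1 TPM in every library and no higher in SCN than in the wild-type cortex. Of 7 SCN markers listed, these 5 were analysed. *Rgs16* was higher in the wild-type and *duper* livers (125 and 135 TPM) than in SCN (24.8 and 23.2 TPM). In bulk tissue, fewer cells of a type and less RNA per cell cannot be told apart.

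The sum of the members' levels was similar in all libraries, between 1436 and 1802 TPM, but different families supplied it in brain and in liver. *SLC22* members summed to 745 to 990 TPM in the 4 brain libraries and to 150 and 128 TPM in the wild-type and *duper* livers. *SLCO* members ran the other way, with 98.7 to 127 TPM in brain and 643 and 555 TPM in liver. *Slc22a17* supplied 85.7% to 91.1% of the *SLC22* sum in brain, and *Slco1b3* supplied 60.8% and 49.8% of the *SLCO* sum in the wild-type and *duper* livers, where *Slco2b1* came next. *ABCA* members summed to 171 to 187 TPM in brain and 43.9 and 42.3 TPM in liver. *ABCC* members summed to 154 to 204 TPM in brain and 378 and 297 TPM in liver. The *ABCB* sums, 172 to 185 TPM in brain and 237 and 194 TPM in liver, and the *ABCG* sums, 72.6 to 83.0 TPM in brain and 63.7 and 66.5 TPM in liver, were closer between the tissues.

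**Figure D1:**
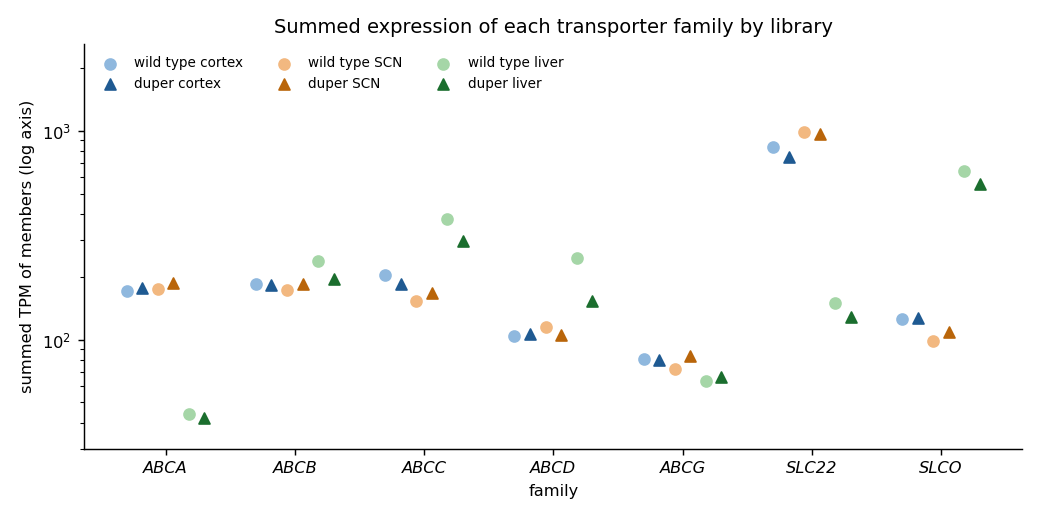
Summed TPM (log axis) of the members of each family (x axis) in each of the 6 libraries; circles are wild type and triangles are duper. The SLC22 sum lies between 745 and 990 TPM in brain and at 150 and 128 TPM in liver, whereas the SLCO sum lies at 643 and 555 TPM in liver and between 98.7 and 127 TPM in brain.

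Liver was compared with brain in a model with tissue and genotype fitted to all genes (edgeR quasi-likelihood test, Benjamini-Hochberg adjustment). The 2 liver libraries were set against the 4 brain libraries, taken from the same animals. Calls needed an adjusted p below 0.05 together with a log2 difference of more than 1 in size. Of the 51 members tested, 21 were called higher in liver and 18 higher in brain. Over all 19780 genes tested, 27.3% were called higher in liver and 28.6% higher in brain. Every *ABCD*, *ABCG* and *SLCO* member that was tested was called in 1 direction or the other with this scaling (TMM), with 3 of 4, 2 of 4 and 3 of 8 higher in liver. In *ABCC*, 5 members were higher in liver, 2 higher in brain and 3 not called, and in *SLC22*, 4 were higher in liver, 5 higher in brain and 1 not called. In *ABCB*, 5 of 8 members were not called.

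The direction of the smaller differences depended on scaling. The 10 most abundant genes took 22.8% and 24.9% of the counts in liver and 2.91% to 3.71% in brain, and TMM normalization raised liver values to allow for this. The median log2 fold change of all genes was 0.02 with TMM, -0.07 with DESeq2, -1.22 with library size alone and -1.07 in limma on log2(TPM + 1). With library size, 15 members were higher in liver and 26 higher in brain, where 13.8% and 51.3% of all genes were. With limma on TPM 48 members were tested and the counts were 11 and 24, where 10.9% and 51.0% of all genes were called. Under all 4 scalings, 11 members were called higher in liver and 17 higher in brain. The 11 were *Slco1b3*, *Abcb11*, *Abcg5*, *Abcg8*, *Abcc6*, *Abcc3*, *Abcc2*, *Slc22a18*, *Slco2b1*, *Slc22a2* and *Abcd4*. The 17 were all of the members called higher in brain other than *Slco5a1*.

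Among uptake transporters, *Slco1b3*, the hepatocyte carrier of bile acids and bilirubin conjugates, was the most abundant member in liver. It measured 391 TPM in the wild-type and 277 TPM in the *duper* liver, and 0.233, 0.155, 0.0701 and 0.296 TPM in wild-type cortex, *duper* cortex, wild-type SCN and *duper* SCN. Each brain value rested on 2 or 3 counts, and liver and brain did not overlap (log2 fold change 12.68, SE 0.28, adjusted p = 1.1e-07). *Slco2b1*, a carrier of sulphated steroids, reached 243 and 269 TPM in liver and 14.2 to 16.5 TPM in brain (log2 5.64, SE 0.15). *Slco2a1*, a prostaglandin carrier, was low in all libraries, at 1.02 and 1.26 TPM in liver and 0.574 to 0.810 TPM in brain (log2 2.31, SE 0.36). *Slc22a18*, an orphan member from an imprinted gene cluster in other mammals, measured 120 and 99.4 TPM in liver and 2.81 to 7.86 TPM in brain (log2 6.09, SE 0.20). The organic cation carrier *Slc22a2* and the organic anion carrier *Slc22a7* were higher in liver at low levels, with 7.38 and 3.65 TPM for *Slc22a2* and 1.05 and 1.03 TPM for *Slc22a7*.

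Of the exporters, *Abcb11*, *Abcg5* and *Abcg8* were under 1 TPM in every brain library. *Abcb11*, the bile salt export pump, measured 140 and 110 TPM in liver and 0.0577 to 0.122 TPM in brain, where it had 2 to 6 counts per library (log2 12.26, SE 0.23). *Abcg5* and *Abcg8*, which act as a pair to export sterols into bile, lie next to each other in the annotation of assembly BCM_Maur_2.0. *Abcg5* measured 24.8 and 27.3 TPM in liver and 0 to 0.594 TPM in brain, and *Abcg8* 34.3 and 33.4 TPM in liver and 0 to 0.491 TPM in brain. The *ABCC* exporters followed. *Abcc2*, which exports conjugates into bile, measured 108 and 81.3 TPM in liver and 3.65 to 4.22 TPM in brain (log2 6.15, SE 0.13). *Abcc3*, its sinusoidal counterpart, measured 69.8 and 46.8 TPM in liver and 0.644 to 2.56 TPM in brain (log2 6.58, SE 0.30). *Abcc6*, a transporter linked to ectopic mineralisation, measured 85.1 and 73.1 TPM in liver and 0.665 to 1.08 TPM in brain (log2 8.24, SE 0.18). Liver was above brain in every pair of libraries for all of these exporters.

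The *ABCD* proteins carry fatty acyl-CoA into peroxisomes or, for *Abcd4*, act in cobalamin transport. *Abcd3* was the leading member of its family in every library, with 186 and 97.4 TPM in liver and 63.1 to 69.5 TPM in brain (log2 2.60, SE 0.18). *Abcd4* measured 45.2 and 40.2 TPM in liver and 9.29 to 14.9 TPM in brain. *Abcd2* was the exception, at 0.503 and 0.273 TPM in liver and 18.3 to 22.8 TPM in brain (log2 -4.16, SE 0.21).

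Among members higher in brain, *Slc22a17*, the receptor for lipocalin 2, was by far the most abundant. It measured 754, 668, 848 and 879 TPM in wild-type cortex, *duper* cortex, wild-type SCN and *duper* SCN and 6.21 and 7.33 TPM in liver (log2 -5.28, SE 0.22). The organic anion carriers *Slc22a6* and *Slc22a8*, which are neighbours in the annotation, had 2 and 1 counts over both livers. *Slc22a8* measured 17.5 to 48.3 TPM in brain, a mean TPM 5761-fold that of liver with a 95% counting interval of 1033 to 227659. *Slc22a6* measured 2.59 to 5.82 TPM, a mean 554-fold that of liver with an interval of 152 to 4589. *Slc22a4*, the ergothioneine carrier, measured 5.14 to 17.9 TPM in brain and 0.722 and 0.294 TPM in liver, and *Slc22a15* 13.2 to 22.9 TPM in brain and 0.731 and 1.07 TPM in liver.

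*Slco1c1*, the thyroxine carrier of the blood-brain barrier, measured 77.4, 78.8, 46.1 and 49.5 TPM in the same order of brain libraries and 3.84 and 3.60 TPM in liver (log2 -2.50, SE 0.13). It lies beside *Slco1b3* in the annotation, and these neighbours had opposite directions. *Slco3a1* measured 26.2 to 35.8 TPM in brain and 3.23 and 4.77 TPM in liver (log2 -1.21, SE 0.19). Its difference was under the fold threshold without the wild-type liver library (log2 -0.92). *Slco4a1*, *Slco4c1* and *Slco5a1* stayed between 0.992 and 4.92 TPM in brain and were at 0.262 TPM or less in liver. *Slco5a1* (log2 -1.25, SE 0.34) did not pass without the *duper* cortex (adjusted p = 0.0636) or the wild-type SCN library (adjusted p = 0.0607).

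The other members higher in brain were ABC proteins. *Abcc8*, the sulphonylurea receptor of ATP-sensitive potassium channels, had no count in either liver and 51.4, 43.5, 11.8 and 17.9 TPM in wild-type cortex, *duper* cortex, wild-type SCN and *duper* SCN. Against a floor of 3 counts over both livers, brain was at least 5109-fold higher. *Abca2*, a lipid transporter known from oligodendrocytes, measured 110 to 119 TPM in brain and 3.38 and 2.97 TPM in liver (log2 -3.60, SE 0.15). The peptide transporter of lysosomes *Abcb9* measured 24.0 to 47.2 TPM in brain and 0.151 and 0.254 TPM in liver, and the sterol exporter *Abcg4* 36.9 to 45 TPM in brain and 0.14 and 0.12 TPM in liver. *Abcg1*, another sterol exporter, measured 35.3 to 43.1 TPM in brain and 4.42 and 5.68 TPM in liver. *Abca5* (13.6 to 20.8 TPM in brain, 1.35 and 1.16 TPM in liver) and the glutathione conjugate exporter *Abcc1* (12.1 to 14.3 TPM in brain, 1.82 and 1.49 TPM in liver) completed the group.

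**Figure D2:**
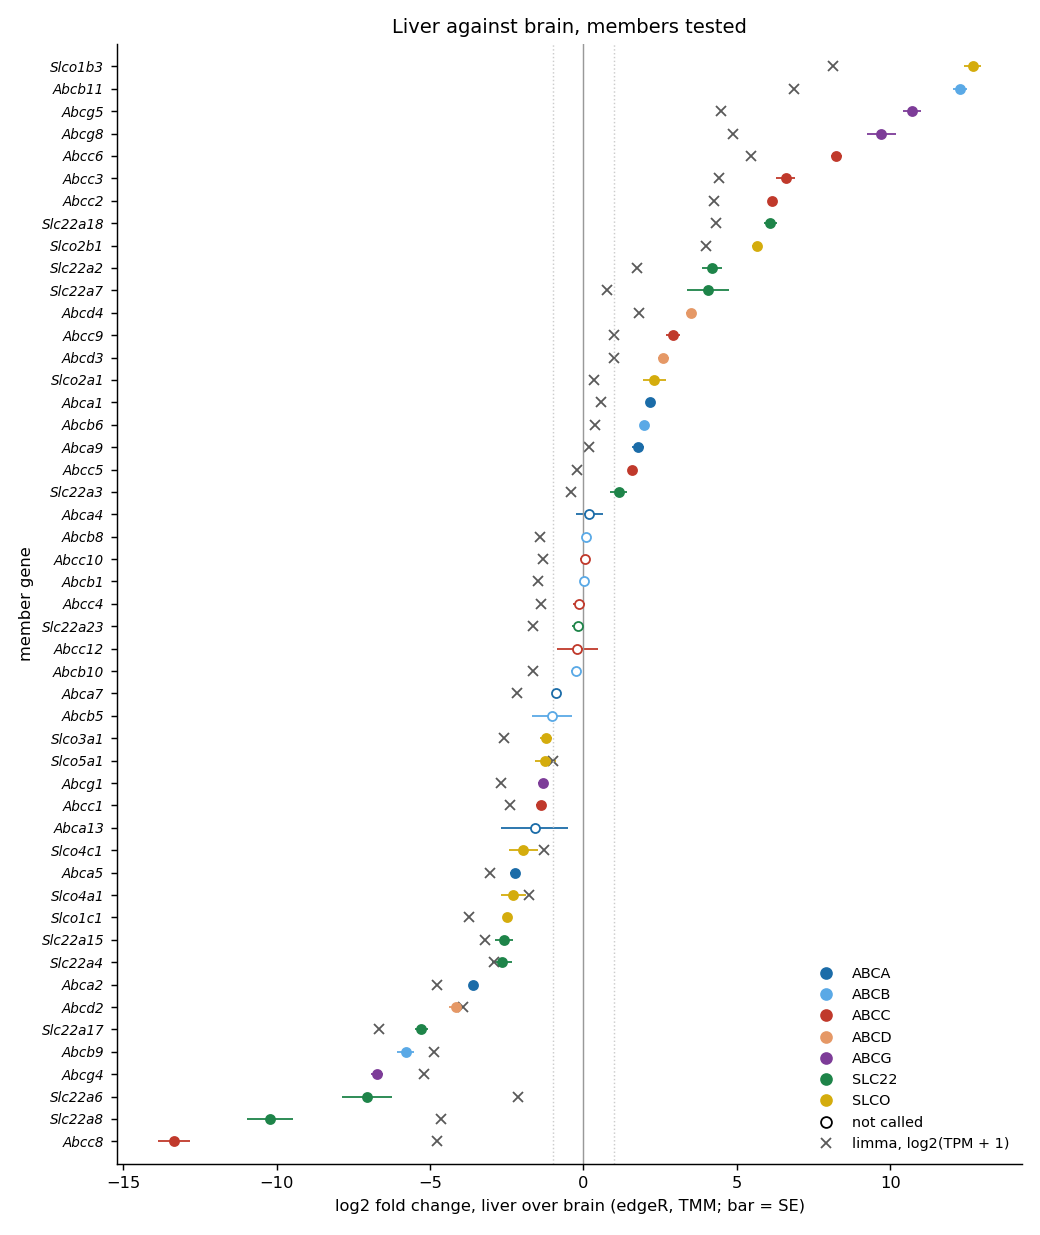
Log2 fold change of liver over brain for the members tested (edgeR with TMM, 2 liver against 4 brain libraries); bars are standard errors, filled points were called, dotted lines mark the fold threshold and crosses give the limma value on log2(TPM + 1) for the same gene. The values run from -13.34 for Abcc8 to 12.68 for Slco1b3, and the crosses of Abcc5 and Slc22a3 lie on the other side of 0.

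For *Abcc5* and *Slc22a3*, called higher in liver with TMM, the direction turned with scaling. *Abcc5*, an exporter of cyclic nucleotides and folates, measured 103 and 82.3 TPM in liver and 102 to 111 TPM in brain, so the groups overlapped (log2 1.58 with TMM, -0.20 in limma on TPM). *Slc22a3*, a corticosterone-sensitive monoamine carrier, measured 5.73 and 7.68 TPM in liver and 5.48 to 16.5 TPM in brain (log2 1.15 with TMM, -0.10 with library size and -0.40 in limma on TPM). *Slc22a3* also did not pass without the *duper* SCN (log2 0.92) or the *duper* liver library (log2 0.53). The cholesterol exporter *Abca1* (26.0 and 25.0 TPM in liver, 14.7 to 22.2 TPM in brain), *Abca9* and *Abcb6* kept their direction but were called with TMM and DESeq2 only. *Abcc9*, a further sulphonylurea receptor, measured 3.93 and 5.49 TPM in liver and 1.35 to 2.25 TPM in brain (log2 2.92, SE 0.22).

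The other 12 tested members were not called. *Abcb1*, the P-glycoprotein of the blood-brain barrier and the canalicular membrane, measured 13.9, 15.6, 14.2 and 13.0 TPM in brain and 4.56 and 4.30 TPM in liver. Its log2 fold change was 0.02 (SE 0.13) with TMM and -1.48 in limma on TPM, which is called. The mitochondrial transporters *Abcb8* (log2 0.09) and *Abcb10* (log2 -0.26), the exporters *Abcc4* (log2 -0.15) and *Abcc10* (log2 0.04), and *Slc22a23* (log2 -0.19) lay within 1 of 0 with TMM. All of these were called higher in brain with library size and in limma on TPM. *Abca7*, a phospholipid transporter of microglia and neurons, passed the adjusted p but not the fold (log2 -0.89, SE 0.13). *Abca4*, *Abca13*, *Abcb5* and *Abcc12* stayed under 1 TPM in every library.

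The 6 members not tested had few counts. *Slc22a11*, *Slc22a12*, *Slc22a14*, *Slc22a16* and *Abca12* had between 4 and 146 counts over all libraries. *Slc22a11*, an organic anion carrier, had no count in brain and 131 and 15 counts in the wild-type and *duper* livers, at least 15.3-fold higher in liver on the mean TPM. Among role-defining members, the symbols *Abcb4*, *Abcg2*, *Slc22a5*, *Slco1a1*, *Slco1a4* and *Slco1b2* were not analysed here.

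The members also differed between liver and brain in which transcript model the reads were assigned to. For 17 members with at least 2 transcript models and at least 1 TPM in every library, the leading model was the same in brain and liver for 12 and differed for 5. For *Abcb1*, a model of 5716 bases held 72.2% and 80.0% of the gene's TPM in liver and 0% in every brain library. The leading model was the 5703-base one in wild-type cortex (51.1%) and *duper* SCN (62.5%), and the 4168-base one in *duper* cortex (41.7%) and wild-type SCN (39.7%). For *Slc22a23*, a model of 6296 bases held 50.9% to 79.5% in brain and 0% in liver, and a model of 6272 bases held 15.6% to 48.1% in brain and 92.2% and 99.2% in liver. For *Slco1c1*, a model of 2998 bases held 94.0% and 80.4% in liver and 17.3% to 39.9% in brain, where several models shared the rest. The other members with a different leader were *Abca2*, *Abcc5* and *Abcc9*. These shares are estimates for models that overlap in sequence, with no replicate, and no test was made. Brain libraries also differed among themselves. In wild-type SCN the 5703-base *Abcb1* model held 10.3%, and a model of 5444 bases held 29.1% there and less than 1% in the other brain libraries.

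**Figure D3:**
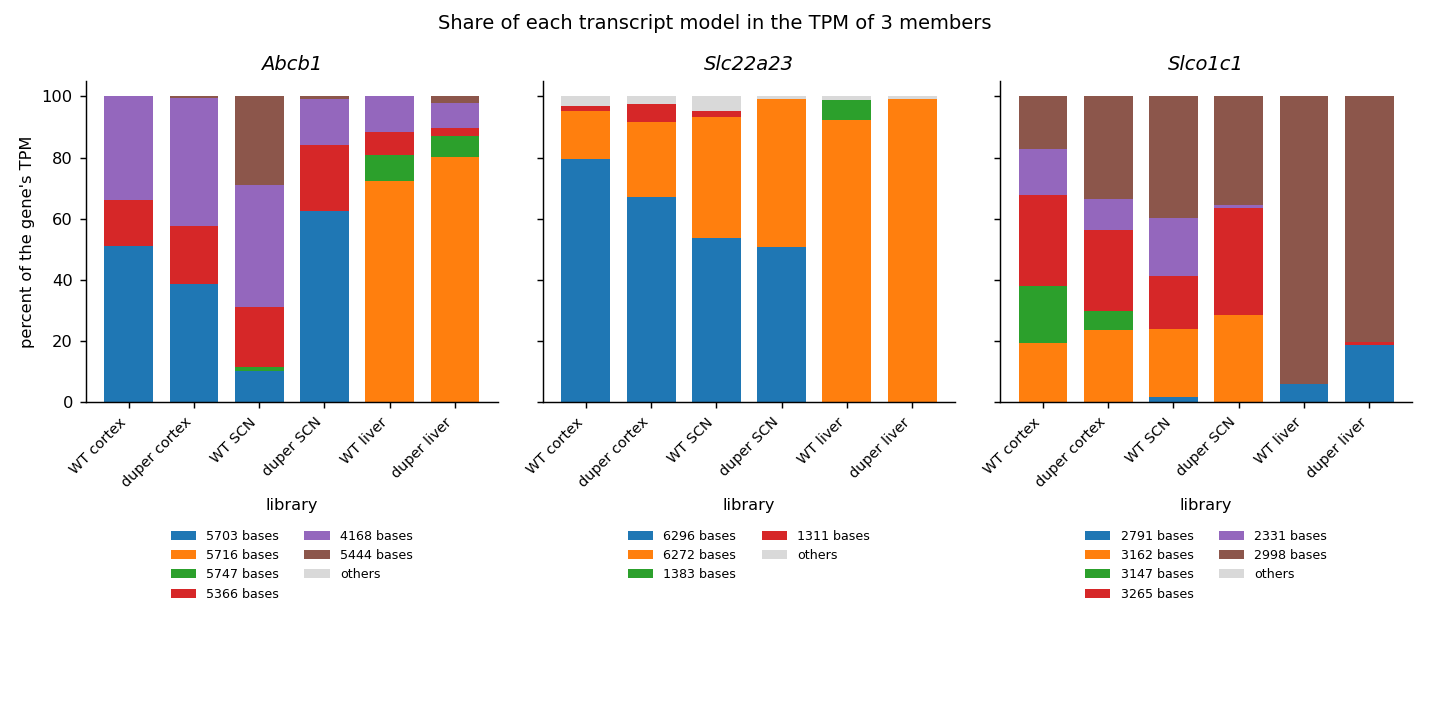
Share of the gene's TPM (y axis, percent) assigned to each transcript model, named by its length, in the 6 libraries for Abcb1, Slc22a23 and Slco1c1. The 5716-base Abcb1 model appears in the 2 livers, at 72.2% and 80.0%, and is at 0% in the 4 brain libraries.

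Within the brain, SCN was compared with cortex in the same model. Of the 51 members tested, 2 were called higher in SCN and 1 higher in cortex, where 2.61% and 4.60% of all genes were called. *Abcc8* was higher in cortex, at 51.4 and 43.5 TPM in wild-type and *duper* cortex and 11.8 and 17.9 TPM in wild-type and *duper* SCN (log2 -1.71, SE 0.23, adjusted p = 0.0077). *Kcnj11*, which encodes the channel pore that binds the *Abcc8* product, was also called higher in cortex (26.1 and 28.1 against 9.55 and 11 TPM, log2 -1.46, SE 0.21). Of 5 neuron markers, 3 were called higher in cortex too, and none higher in SCN. They were *Snap25* (log2 -1.85), *Syt1* (log2 -1.54) and *Rbfox3* (log2 -1.53). *Slc22a4* was higher in SCN, at 17.9 and 15.5 TPM against 7.38 and 5.14 TPM in cortex (log2 1.61, SE 0.34, adjusted p = 0.028). *Abcg5* had 11 and 5 counts in the wild-type and *duper* SCN and none in cortex, at least 2.69-fold higher in SCN. These calls depended on single libraries. *Abcc8* did not pass without the wild-type cortex (adjusted p = 0.126), *Slc22a4* without any of the 4 brain libraries (adjusted p from 0.126 to 0.235), nor *Abcg5* without any of them (adjusted p from 0.0574 to 0.276). *Slco1c1* (log2 -0.71), *Abcb9* (log2 -0.85) and *Abcb6* (log2 0.71), a porphyrin transporter, passed the adjusted p but not the fold.

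*duper* was compared with wild type across the 3 tissues, which stood in for replicates, in a model with tissue and genotype. None of the 48 members tested passed an adjusted p of 0.05 with a log2 difference of more than 0.58 in size (edgeR), where 0.00547% of all 18275 genes were called. *Cry1*, the mutated gene, did not pass this test either (log2 -1.69, SE 0.17, edgeR adjusted p = 0.131). The test thus did not call a fall of that size, and a lack of calls does not show that members were unchanged. DESeq2, the likelihood ratio test and limma also called no member. Of 18275 genes, DESeq2 called 26 higher and 16 lower, and the likelihood ratio test 54 and 37. With limma on log2(TPM + 1) these were 0 and 2 of 20442. At an unadjusted p under 0.05 there was 1 member, *Slc22a4* (2.08% of members, against 3.32% of all genes). *Slc22a4* was lower in *duper* in all 3 tissues, at 7.38 and 5.14 TPM in cortex, 17.9 and 15.5 TPM for SCN, then 0.722 and 0.294 TPM for liver (log2 -0.67, SE 0.28, adjusted p = 0.998). The log2 fold change was above 0 for 29 members and below 0 for 19, with a median of 0.03, against 0.01 over all genes. For 35 of the 48 it was within 0.3 of 0.

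Within a tissue there was 1 library per genotype, so values are given with no test, and a member was counted when the log2 ratio of TPM + 1 was over 0.58 in size. Members with a mean of at least 1 TPM in the tissue were used. In cortex, 1 of 39 members was higher in *duper* and none was lower, where 8.24% and 7.75% of all genes were. This was *Abcc3*, named after its value was seen, with 10 wild-type counts (0.644 TPM) against 52 counts (2.22 TPM) for *duper*. The median of the members was -0.06, against 0.02 over all genes. The next members in cortex were within counting error of no difference, such as *Slc22a4* (7.38 and 5.14 TPM) and *Slco4c1* (2.11 and 2.99 TPM). *Abca7* (19.3 and 16.1 TPM), *Abcc8* (51.4 and 43.5 TPM), *Slc22a17* (754 and 668 TPM) and *Abcc5* (111 and 102 TPM) had counting intervals that lay below 0.

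In liver, 3 of 37 members were lower in *duper* and none was higher, where 10.5% and 4.75% of all genes were. *Abcd3* measured 186 TPM in the wild-type liver against 97.4 TPM in that of *duper*, 52.5% of the wild-type level. *Slc22a2* measured 7.38 and 3.65 TPM (49.5%). *Slc22a11*, named after its value was seen, measured 2.14 and 0.197 TPM on 131 and 15 counts (9.21%). The leading hepatocyte transporters were lower by less, with *Slco1b3* at 70.8%, *Abcc3* at 67.1%, *Abcc2* at 75.1% and *Abcb11* at 78.2% of the wild-type level, whereas *Slco2b1* was at 269 against 243 TPM. The median of all genes in liver was itself -0.10, and that of the members -0.11. With TMM-normalized CPM the median of the members was 0.07, and 4 members were higher (*Abcc4*, *Slco3a1*, *Abcc9* and *Slc22a3*) and the same 3 lower. The summed hepatocyte markers were at 107% and the summed microglia and macrophage markers at 178% of the wild-type level in the *duper* liver. Their part in these values was not tested.

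**Figure D4:**
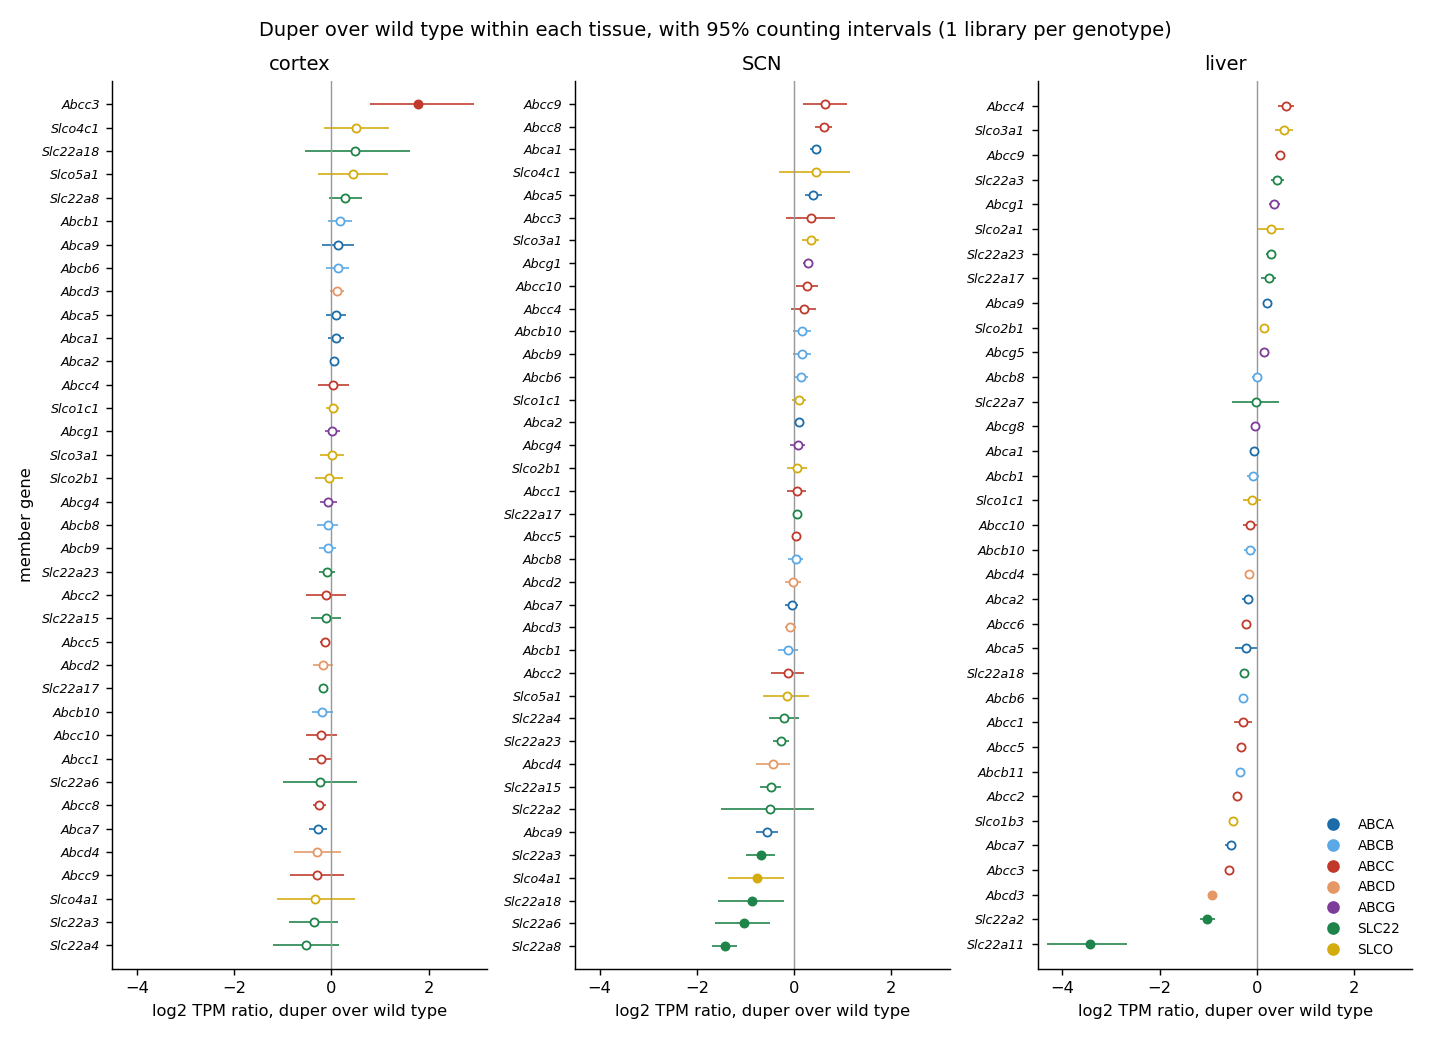
Log2 ratio of TPM, duper over wild type, for members with a mean of at least 1 TPM in cortex, SCN and liver, 1 library per genotype; bars are 95% counting intervals and filled points passed 0.58 on the log2(TPM + 1) scale. The filled points are Abcc3 in cortex, 5 members below 0 in SCN and 3 members below 0 in liver.

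In SCN, 5 of 40 members were lower in *duper* and none was higher, where 7.70% and 6.67% of all genes were. *Slc22a8*, an organic anion carrier of the choroid plexus, the blood-brain barrier and the meninges, measured 48.3 TPM (1566 counts) in wild-type SCN and 18.1 TPM (139 counts) in *duper* SCN, and 17.5 and 21.4 TPM in the corresponding cortex libraries. Its neighbour *Slc22a6* measured 5.82 TPM in wild-type SCN against 2.85 TPM in *duper* SCN, with 3.04 and 2.59 TPM for cortex. The wild-type SCN thus stood above the other 3 brain libraries for both genes. *Slc22a18* measured 7.86 and 4.34 TPM in SCN, *Slc22a3* 16.5 and 10.3 TPM and *Slco4a1*, a thyroid hormone carrier, 4.92 and 2.90 TPM. For all 5 the 95% counting interval of the ratio lay below 0. The wild-type SCN was likewise the highest of the 4 brain libraries for *Slc22a18*, *Slc22a3* and *Slco4a1*. The members with the highest ratios, *Abcc8* (11.8 and 17.9 TPM) and *Abca1* (16.3 and 22.2 TPM), did not pass 0.58. With a pseudocount of 0.1 in place of 1, *Abcc8* (0.60) and *Abcc9* (0.61, with 1.35 and 2.10 TPM) were past it, where 8.80% of all genes were higher. The median of the members was 0.04, against 0.02 over all genes.

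Summed marker lists were also compared between the wild-type and *duper* SCN. All 5 leptomeningeal fibroblast markers (*Foxc1*, *Dcn*, *Lum*, *Col1a1* and *Aldh1a2*) were lower in the *duper* SCN, and their sum was 176 TPM in wild-type against 64.2 TPM in *duper* SCN tissue (42.5 against 35.9 TPM in cortex). Of the 7 choroid plexus and ependyma markers, 5 were lower, with a sum of 206 and 52.0 TPM in SCN and of 1892 and 2551 TPM in cortex. *Ttr* alone was 165 and 24.1 TPM in SCN. The 8 brain endothelium markers summed to 243 and 250 TPM for SCN (279 and 252 TPM for cortex). No marker of these 3 lists was at 0 in a brain library. The 5 SCN markers were also all lower, with a sum of 75.5 and 47.8 TPM. The part of these cell types in the result was not tested. In the model across tissues, *Slc22a8* had a log2 fold change of -0.58 (SE 0.42), and without both SCN libraries it was 0.35.

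**Figure D5:**
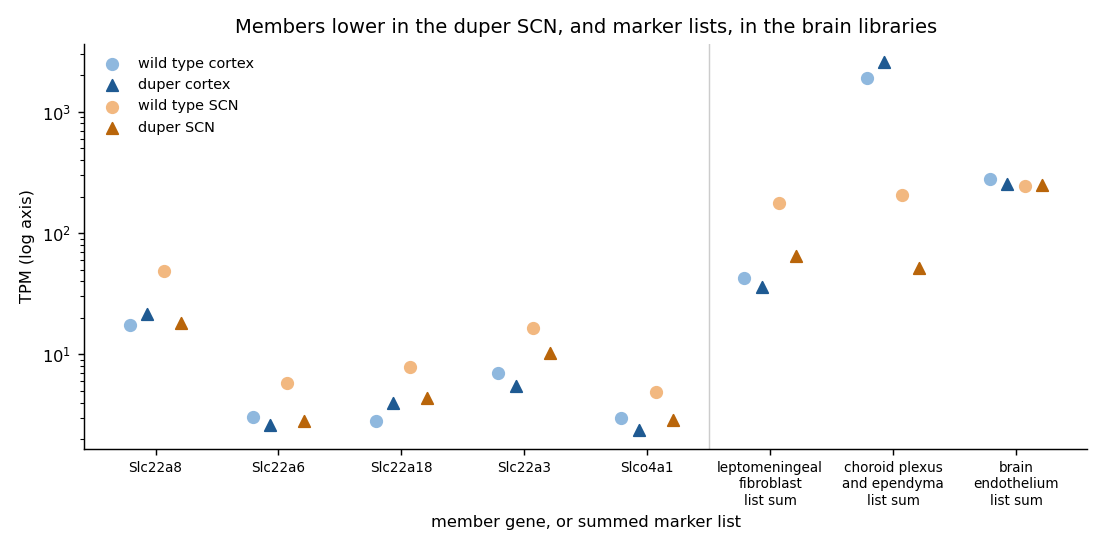
TPM (log axis) in the 4 brain libraries of the 5 members that were lower in the duper SCN, and summed TPM of 3 marker lists; circles are wild type and triangles are duper. The wild-type SCN is the highest of the 4 brain libraries for each of the 5 members and for the leptomeningeal list (176 TPM), but not for the choroid plexus list (206 TPM against 1892 and 2551 TPM in cortex).

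Of 28 members with at least 1 TPM in each tissue, none was past 0.58 in the same direction in all 3 tissues, where 0.272% of all genes were higher and 0.401% lower throughout. Above 0 in all 3 tissues were 3 members (10.7%, against 9.52% of all genes), and below 0 were 3 (10.7%, against 14.1%). The difference between the *duper* effect in liver and that in brain was tested as an interaction term over the 6 libraries (edgeR), with 51 members tested. Of these, 1 was called lower and none higher, where 1.27% and 1.77% of all genes were. It was *Abcd3*, with 63.1, 69.5 and 186 TPM in wild-type cortex, SCN and liver and 68.9, 65.7 and 97.4 TPM in *duper*. The *duper* effect in liver minus that in brain was -0.74 on the log2 scale (SE 0.17, adjusted p = 0.0349). With DESeq2 the value was -0.74 but did not pass (adjusted p = 0.222), and with limma on log2(TPM + 1) it was -0.94 (adjusted p = 0.698). An unadjusted p under 0.05 was found for 12 members (23.5%), against 15.9% of all genes. *Ppara*, a nuclear receptor for fatty acids, measured 97.3 TPM in the wild-type against 49.2 TPM in the *duper* liver. A relation between the pair was not tested.

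Genes that work with these transporters were described from 4 lists, with TMM scaling only. With that scaling, 27.3% of all 19780 genes tested were called higher in liver and 28.6% higher in brain. Of 18 regulators of transporter genes, 17 were called higher in liver and none higher in brain. On the TPM scale 14 of the 17 were above brain in both livers, *Nfe2l2* and *Esr1* overlapped with brain and *Nr1h2* lay below it. The bile acid receptor *Nr1h4* and *Foxa2* were listed at 0 in all brain libraries and measured 93.6 and 62.9 TPM and 25.5 and 26.0 TPM in liver. *Nr5a2* had a log2 fold change of 11.54 (SE 0.25). The lowest values in the list were those of *Srebf2* (log2 -0.57), *Nr1h2* (log2 1.07) and *Nfe2l2* (log2 1.46), and *Nr1h2* measured less in liver on the TPM scale (25.4 and 29.5 against 37.4 to 41.5 TPM). All 9 genes of bile acid synthesis and other bile transporters were called higher in liver, from *Slc27a5* (log2 11.18), *Cyp7a1* (log2 10.64), the rate-limiting enzyme of bile acid synthesis, and *Fgfr4* (log2 8.92) to *Atp7b* (log2 3.78), *Slc51b* (log2 3.23) and *Slc51a* (log2 2.22). *Slc51a* and *Slc51b* did not exceed 2.21 TPM in any library, and their TPM overlapped between the tissues. *Slc51a* measured 1.12 and 0.875 TPM in liver and up to 1.25 TPM in brain, and *Slc51b* 0.916 and 2.21 TPM in liver and up to 1.76 TPM in brain, with the wild-type SCN the highest brain library for both.

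Of 12 tested partners and scaffolds, 8 were called higher in liver and 1 higher in brain. For 3 of the 8 the TPM of liver and brain overlapped, with *Rdx* at 83.4 and 63.9 TPM in liver and 74.0 to 95.8 TPM in brain, *Kcnj8* at 4.87 and 4.68 against 3.17 to 5.88 TPM, and *Pex19* at 76.6 and 64.0 against 56.2 to 66.7 TPM. The highest values were those of *Apoa1* (log2 11.96), which accepts lipid from the *Abca1* product, *Pdzk1* (log2 5.94), a scaffold of several *SLC22* and *SLCO* proteins, and *Apoe* (log2 3.94). The lowest were those of *Kcnj11* (log2 -6.76), *Slc9a3r2* (log2 -0.44) and *Ezr* (log2 -0.23). Of 7 other drug transporters, 2 were higher in liver, among them the nucleoside carrier *Slc29a1* (log2 5.59). *Slc29a2* (log2 -3.78), *Slc28a1* (log2 -2.60) and *Slc15a1* (log2 -1.43) were higher in brain, and *Slc28a2* was not called (log2 0.61). Across tissues, no gene of the 4 lists was called between *duper* and wild type, and an unadjusted p under 0.05 was found for 3, all of them regulators, among them *Ppara* (log2 -0.51, SE 0.21) and *Srebf1* (log2 0.38, SE 0.14).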

How the data were processed

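RNA was extracted with TRIzol and stranded mRNA libraries were sequenced as paired reads. Per the paper's supplementary methods, the authors assigned reads to transcripts with Kallisto, whose version is not given in the sources used here, against the hamster reference MesAur2.0, and added transcripts up per gene with tximport. The deposited gene tables give unnormalized estimated counts, and TPM in a second table, and the deposited transcript tables give estimated counts, TPM and lengths for each library. Genes were used under the symbols of the deposited tables. All 57 members were found in the RefSeq annotation of BCM_Maur_2.0, which was used for names and neighbours only.

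Counts were rounded, filtered with filterByExpr, TMM-normalized and tested over all genes by the quasi-likelihood method of edgeR 4.0.16 (R 4.3.3), with tissue and genotype as terms, or with tissue, genotype and a genotype by liver term for the interaction. Each SE was taken from the fold change and its F statistic. DESeq2 1.42.0, the method named by the authors, and limma 3.58.1 were alternatives. Counting intervals are Clopper-Pearson at 95%, treat estimated counts as counts and cover counting error only. A count of 0 was bounded with a floor of 3 counts over the group, on the TPM scale. Python 3.11.15, numpy 2.4.6, pandas 2.3.3, scipy 1.17.1 and matplotlib 3.10.9 were used. The edgeR tests were run on simulated independent libraries with the same dispersion for every gene. That run cannot show how the tests behave when tissues of the same animals stand in for replicates.

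With 1 library per genotype and tissue, tissues and genotypes stand in for replicates, and p-values measure only the spread between these libraries. Of the members, 10 had estimated counts that were more than 0.001 from a whole number (*Abca9*, *Abcb1*, *Abcb10*, *Abcc1*, *Abcc6*, *Abcc9*, *Slc22a2*, *Slco1c1*, *Slco4a1* and *Slco5a1*), so some of their reads were shared with other genes and their values are less certain. The members, lists and tests were chosen with earlier results of these data known. The genes named are the 12 members with the highest mean TPM in liver and in brain, the 3 highest of each family, every member called, a list of members by role, the 4 highest and lowest ratios within a tissue among members with a mean of at least 2 TPM and 50 counts together, and the 3 highest and lowest liver to brain values of each of 4 pathway lists. Marker lists of cortex, SCN, neurons, oligodendrocytes, astrocytes, microglia and macrophages, brain endothelium, pericytes, choroid plexus and ependyma, leptomeningeal fibroblasts, blood, hepatocytes and cholangiocytes were summed in each library. Sequences of the members were not analysed here, and the results of some genes are not reported here or drawn by name.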

Additional observations from a re-analysis of the deposited data

Results flagged for a closer look

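The *duper* effect on *Abcd3* differed between liver and brain in an interaction term fitted over the 6 libraries, by a log2 value of -0.74 (SE 0.17, edgeR quasi-likelihood adjusted p = 0.0349). The value was lower in *duper* in 1 of 1 liver comparison and in 1 of 2 brain comparisons. The fit left 1 residual degree of freedom, from the difference in *duper* effect between cortex and SCN, and no library could be left out of it. The adjusted p ranged from 0.00105 in the likelihood ratio test to 0.698 in limma on log2(TPM + 1).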

How the results depend on the processing

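No paired analysis was possible because 1 set of values per genotype and tissue was available, with no replicate number that pairs them. The models themselves set genotypes against each other within a tissue, and tissues within a genotype. No member was called for genotype under any alternative. Of members higher in liver, 11 were called with limma on log2(TPM + 1) and 21 to 23 with a library left out, and of members higher in brain, 17 to 18 with a library left out. For SCN against cortex, 3 members were called, 6 with no fold threshold, 1 with at least 10 counts in every library, 0 with limma on log2(TPM + 0.1) and 0 to 4 with a library left out. For the interaction, 1 member was called, 0 with DESeq2 or limma (pseudocount 1 or 0.1), 6 with the likelihood ratio test and 4 with at least 10 counts in every library. Members past the fold within a tissue were 1 in cortex (2 with TMM-normalized CPM, 0 from a mean of 5 TPM, 2 with no minimum), 5 in SCN (7 with a pseudocount of 0.1, 3 from a mean of 5 TPM) and 3 in liver (7 with CPM), and the liver median, -0.107, was 0.0729 with CPM. Liver against brain was reversed for *Abcc5* with limma (-0.20 with either pseudocount) and for *Slc22a3* (-0.10 with library size, -0.40 and -0.44 with limma at pseudocounts of 1 and 0.1). The genotype value of *Slc22a8* was 0.35 without both SCN libraries. Of single members' values, 654 kept direction and call, 43 kept direction but not the call, 6 were reversed and 3 moved. The causes were not tested. Summing families with unnamed (LOC) genes was not run, since the annotation table gives no descriptions. The deepest brain library had 29936218 counts and the shallowest 6788947, so ratios of members under 1 TPM rest on few counts.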

Other observations

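Further values of the marker lists are given here. In the *duper* libraries the blood markers summed to 32.3% of the wild-type level in cortex, 31.9% in SCN and 47.7% in liver. The pericyte markers summed to 87.1%, 101.3% and 94.97%, the astrocyte markers to 111%, 113% and 79.0%, the oligodendrocyte markers to 131%, 86.6% and 77.2%, and the cholangiocyte markers to 121%, 80.9% and 125%, in the same order of tissues. The oligodendrocyte markers were at 2.10 and 1.62 TPM in the livers, and the neuron markers at 0.721 and 1.06 TPM.

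Pairs of members that lie within 2 places of each other in the annotation were *Abca5* and *Abca9*, *Abcg5* and *Abcg8*, *Slc22a6* and *Slc22a8*, *Slc22a11* and *Slc22a12*, *Slc22a13* and *Slc22a14*, and *Slco1b3* and *Slco1c1*. *Abcg5* and *Abcg8* were both higher in liver, and *Slc22a6* and *Slc22a8* both higher in brain. *Abca5* was higher in brain, whereas *Abca9* was called higher in liver with TMM at 8.74 and 10.1 TPM in liver and 6.33 to 12.0 TPM in brain, levels that overlapped.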
